A study of Mus musculus with 8 samples.

Results

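Interferon-stimulated genes were followed in mouse embryonic fibroblasts (MEFs) early in reprogramming, after transfection with pools of siRNA. The genes were taken by symbol from a list of 41, with no measured value in the rule, and 38 of them were among the 18990 genes of the deposited table. *Mx1*, *Oas2* and *Oas3* were not analysed here. Of the 38 genes, 25 had a mean of at least 1 CPM (reads of the gene scaled to a common library size) over the libraries and were tested, and 13 were below that level.

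All cells were primary wild-type BL6 MEFs, used at passage 2, that carried the doxycycline-inducible tet-STEMCCA cassette with Oct4, Sox2, Klf4 and c-Myc (OSKM) together with an rtTA lentivirus. Each culture was reverse transfected with RNAiMAX and 40 nM of pooled siRNA against *Ncor1* (*siNcor1*) or *Oct4* (*siOct4*), and received doxycycline medium with Chiron, Alk5i, ascorbic acid and LIF one day later. RNA was collected at day 3 and day 6 of reprogramming, with 2 libraries in each of the 4 groups, so the 8 libraries share the lentiviruses, the transfection reagent, the amount of siRNA and the medium. Libraries without siRNA or with a non-targeting pool were not analysed here. The comparisons therefore address whether the interferon genes differ between the siRNA pools or between the days, and not whether transfection itself changed them. The study describes the libraries of a group as biological replicates, and the labels do not say which cultures or embryos they came from, so the *p*-values measure the spread between these libraries.

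The interferon response starts when sensors of foreign nucleic acid, such as RIG-I and MDA5, detect double-stranded RNA and signal for the production of type I interferon. Interferon binds its receptor on the same or neighbouring cells, and the JAK kinases then activate STAT proteins, which join IRF9 in a complex that binds the interferon-stimulated response element (ISRE) in target promoters. Fibroblasts are well known for this response, and double-stranded RNA such as siRNA can set it off in some settings. Many interferon-stimulated genes keep a low level without interferon and encode the sensors and transcription factors of the response itself.

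The promoter stretches below show matches to sequence elements of the interferon response, for some of the genes named in the results. Whether these matches act in these cells was not tested. They come from RefSeq (GRCm38.p6), which gave a window from 250 bases before to 50 bases after the start for 29 of the 38 genes. The ISRE was searched on both strands as GAAA, any 2 bases, then GAAA, and matches may overlap. The second element, the gamma-activated site (GAS), was searched on both strands as TTC, any 3 bases, then GAA. Sequences run 5′ to 3′ on the strand of the gene, and capitals mark the ISRE matches, except in *Irf1*, where they mark a GAS match. *Isg15* (chr4:156200860-156200911, minus strand, from 93 to 42 bases before the start) has 3 overlapping ISRE matches. *Ifit1* (chr19:34640770-34640828, plus strand, 119 to 61 bases before the start) and *Ifit3* (chr19:34583358-34583431, plus strand, 171 to 98 bases before the start) have 2 separate matches each, and *Ifit3b* has the same 74 bases at chr19:34607754-34607827. *Rsad2* (chr12:26456548-26456587, minus strand, 135 to 96 bases before the start), *Gbp2* (chr3:142620589-142620628, plus strand, 74 to 35 bases before the start) and *Stat2* (chr10:128270261-128270300, plus strand, 237 to 198 bases before the start) have 1 match each. *Bst2* (chr8:71537572-71537617, minus strand, 145 to 100 bases before the start), shown because it moved against the other genes, has 2 overlapping ISRE matches, and a GAS match that overlaps the first of them and is not marked. *Irf1* (chr11:53769909-53769947, plus strand, 105 to 67 bases before the start) is shown for its GAS match.
Isg15: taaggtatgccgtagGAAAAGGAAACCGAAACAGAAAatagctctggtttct
Ifit1: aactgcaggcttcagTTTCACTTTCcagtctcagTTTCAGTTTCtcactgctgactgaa
Ifit3: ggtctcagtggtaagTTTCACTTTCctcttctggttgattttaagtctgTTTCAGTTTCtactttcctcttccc
Rsad2: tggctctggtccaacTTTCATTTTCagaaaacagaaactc
Gbp2: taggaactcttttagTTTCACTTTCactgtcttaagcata
Stat2: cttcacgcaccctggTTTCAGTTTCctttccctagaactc
Bst2: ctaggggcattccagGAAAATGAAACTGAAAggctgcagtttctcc
Irf1: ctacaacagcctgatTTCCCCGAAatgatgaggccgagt

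An ISRE match was present in 15 of the 29 windows (51.7%), against 3.99% of the 27025 genes with a window. A GAS match was present in 7 of the 29 (24.1%), against 9.55% of all genes. The ISRE was found in 6 of 9 windows of genes below the 1 CPM level and in 9 of 20 windows of tested genes. A match describes letters in this window only, and no match says nothing of elements elsewhere.

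The libraries held between 7735742 and 16445192 reads on genes, and a gene with 3 reads had between 0.174 and 0.380 CPM. The share of the non-coding gene *Gm26917* was from 15.5% to 16.6% in day 3 libraries and from 20.3% to 29.1% in day 6 libraries, highest in *siOct4* replicate 1. *Ncor1* read 135 and 146 CPM in *siNcor1* and 226 and 245 CPM in *siOct4* at day 3, where it differed (log2 fold change 0.74, SE 0.12, adjusted *p* = 0.0139), and 153 and 156 CPM in *siNcor1* and 160.4 and 140.3 CPM in *siOct4* at day 6, where no difference was called (log2 fold change −0.042, SE 0.12, adjusted *p* = 0.815). *Pou5f1*, which encodes OCT4, read 197 and 205 CPM in *siNcor1* and 185 and 197 CPM in *siOct4* at day 3 (log2 fold change −0.076, SE 0.16, adjusted *p* = 0.941) and 187 and 159.7 CPM in *siNcor1* and 700.1 and 501 CPM in *siOct4* at day 6, where it was higher in the libraries labelled *siOct4* (log2 fold change 1.78, SE 0.16, adjusted *p* = 0.000109). Reads from the cassette and from the endogenous gene were counted together, and the *Oct4* label goes against its target at day 6, so every direction given for *siOct4* below is that of the libraries labelled *siOct4*. All 8 fibroblast markers were found in every library. The siRNA sequences were not used here.

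Most interferon-stimulated genes were at low levels in all 4 groups. Per kilobase of exon, 29 of the 38 genes were below the median of the 18969 genes with a length, and the median gene was at the 25.2 percentile. *Bst2*, which encodes tetherin, a membrane protein that holds budding virus particles at the cell surface, was the highest with 49.0 CPM per kb, at the 96.1 percentile. *Trim25*, a ubiquitin ligase that activates RIG-I, followed with 12.3 CPM per kb. Only 8 genes had a mean of at least 10 CPM: *Trim25*, *Bst2*, *Ddx58*, *Eif2ak2*, *Irf1*, *Dtx3l*, *Stat2* and *Irf9*. In contrast, 11 genes had fewer than 20 reads in every library. Those nearest the level needed for testing were *Ifit3* and *Gbp3* inside it, both with a mean of 1.02 CPM, and *Ifit1* outside it, with 0.844 CPM.

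**Figure D1:**
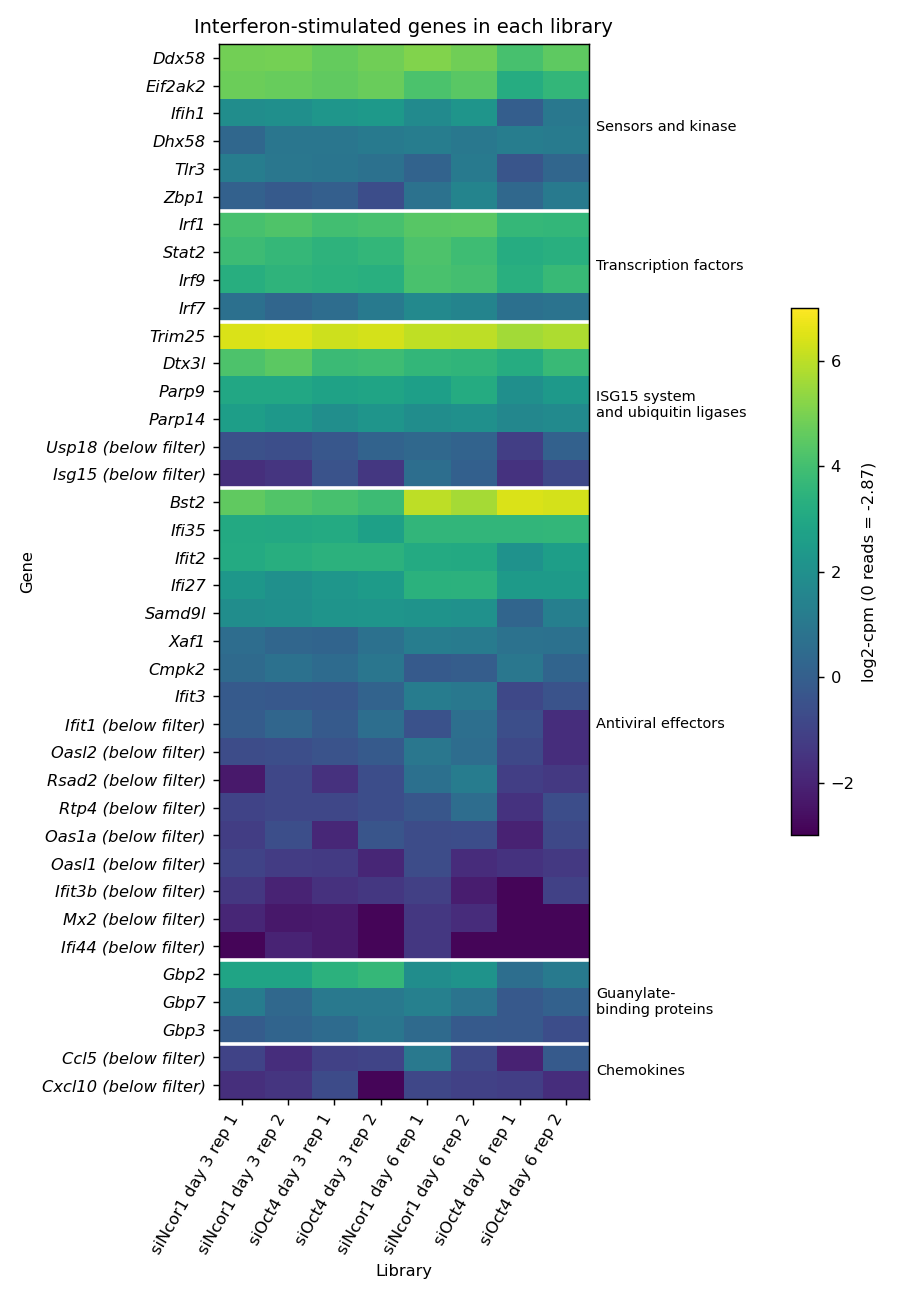
Level of the 38 interferon-stimulated genes (rows) in each of the 8 libraries (columns), as log2-cpm by colour. Genes below the 1 CPM mean are marked as below the filter. *Trim25* and *Bst2* are the brightest rows, and *Isg15*, *Rsad2* and *Oasl2* are brightest in the *siNcor1* day 6 columns.

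The summed level of all 38 genes included between 48.6 and 90.6 CPM from *Trim25* alone. The sum was 289.7 and 295.0 CPM in *siNcor1* and 261 and 281 CPM in *siOct4* at day 3. At day 6 it was 330.0 and 309 CPM in *siNcor1* and 245 and 273 CPM in *siOct4*, so the *siNcor1* libraries were above the *siOct4* libraries at both days. A sum weighs high genes most. At day 3 the group means of *Trim25*, *Dtx3l* and *Bst2* were 88.1, 20.3 and 21.3 CPM in *siNcor1* and 78.9, 14.3 and 15.6 CPM in *siOct4*. Of the 25 tested genes, 12 had a positive and 13 a negative day 3 log2 fold change of *siOct4* over *siNcor1*. The 13 genes below 1 CPM, which include the classical markers *Isg15*, *Rsad2* and *Ifit1*, were summed apart. Their sum was 4.08 and 4.70 CPM in *siNcor1* and 4.81 and 5.82 CPM in *siOct4* at day 3, and 11.2 and 9.92 CPM in *siNcor1* and 2.75 and 4.41 CPM in *siOct4* at day 6. The *siNcor1* day 6 libraries were thus above all other libraries for this sum. This did not hold for each gene: *Ifit1* read 0.578 and 1.43 CPM there, against 1.39 CPM in *siOct4* day 3 replicate 2. In bulk RNA, fewer cells of a type and less RNA per cell cannot be told apart.

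**Figure D2:**
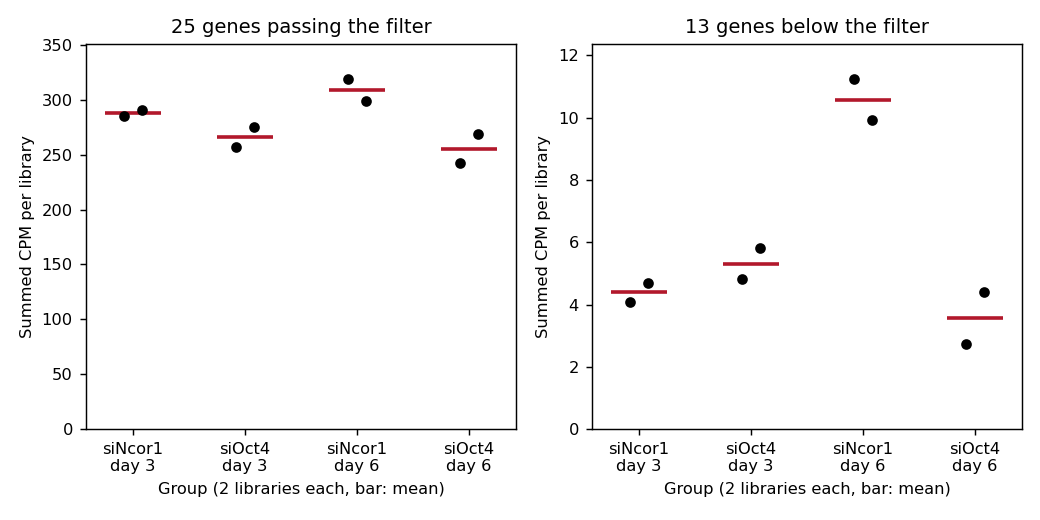
Summed CPM per library for the 25 tested genes (left) and the 13 genes below the 1 CPM mean (right), both axes from 0, with 1 point per library and a bar at the mean of the 2 libraries of a group. On the right, the *siNcor1* day 6 libraries sit at 9.92 and 11.2 CPM and all other libraries are at or under 5.82 CPM.

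To test whether the pools differed at day 3, *siOct4* was compared with *siNcor1* with limma across 13866 genes. None of the 25 genes was called at an adjusted *p* under 0.05, with limma or with voom on the recovered reads, whereas 0.375% of all genes were called higher and 0.692% lower in *siOct4*. The median log2 fold change was −0.037, against −0.021 over all genes tested. The replicates of the pools did not overlap for 6 genes that were above and 9 that were below in *siOct4*, which compares with 20.7% above and 22.7% below over all genes. At an unadjusted *p* under 0.05 there were 3 genes, *Gbp2*, *Bst2* and *Dtx3l*, the first above and the others below in *siOct4*. Of all 13866 genes, 1460 were under the same unadjusted level. *Gbp2*, an interferon-inducible GTPase, read 6.99 and 7.02 CPM in *siNcor1* and 10.7 and 12.5 CPM in *siOct4* (log2 fold change 0.71, SE 0.24, adjusted *p* = 0.233). *Bst2* read 23.3 and 19.3 CPM in *siNcor1* and 16.9 and 14.4 CPM in *siOct4* (log2 fold change −0.44, SE 0.16, adjusted *p* = 0.284). *Dtx3l*, the ubiquitin ligase partner of PARP9, read 18.3 and 22.3 CPM in *siNcor1* and 13.9 and 14.7 CPM in *siOct4* (log2 fold change −0.50, SE 0.20, adjusted *p* = 0.364). With 2 libraries a group, an exact permutation test cannot go below *p* = 0.333. The calls here rest on the limma model, which shares the spread over genes.

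At day 6 the pools differed. Of the 25 genes, 13 (52%) were lower in *siOct4* than in *siNcor1*, 1 was higher and 11 were not called, while 18.6% of all genes tested were called lower and 12.1% higher. *Ifit3* is among the lower genes and passed the 1 CPM level only through *siNcor1* day 6, as *Gbp3* did through *siOct4* day 3. Without both, 12 of 23 genes were lower and 1 was higher. The median log2 fold change of the 25 genes was −0.67, against −0.025 over all genes tested, and 21 of the 25 fold changes were negative. The *siOct4* replicates were both below the *siNcor1* replicates for 18 genes and both above for 3 genes, and these shares over all genes were 34.8% and 29.9%. The lower genes were *Ifit3*, *Ifih1*, *Samd9l*, *Gbp2*, *Gbp7*, *Ifi27*, *Eif2ak2*, *Stat2*, *Irf1*, *Ifit2*, *Parp9*, *Ddx58* and *Irf9*, and *Bst2* was higher.

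**Figure D3:**
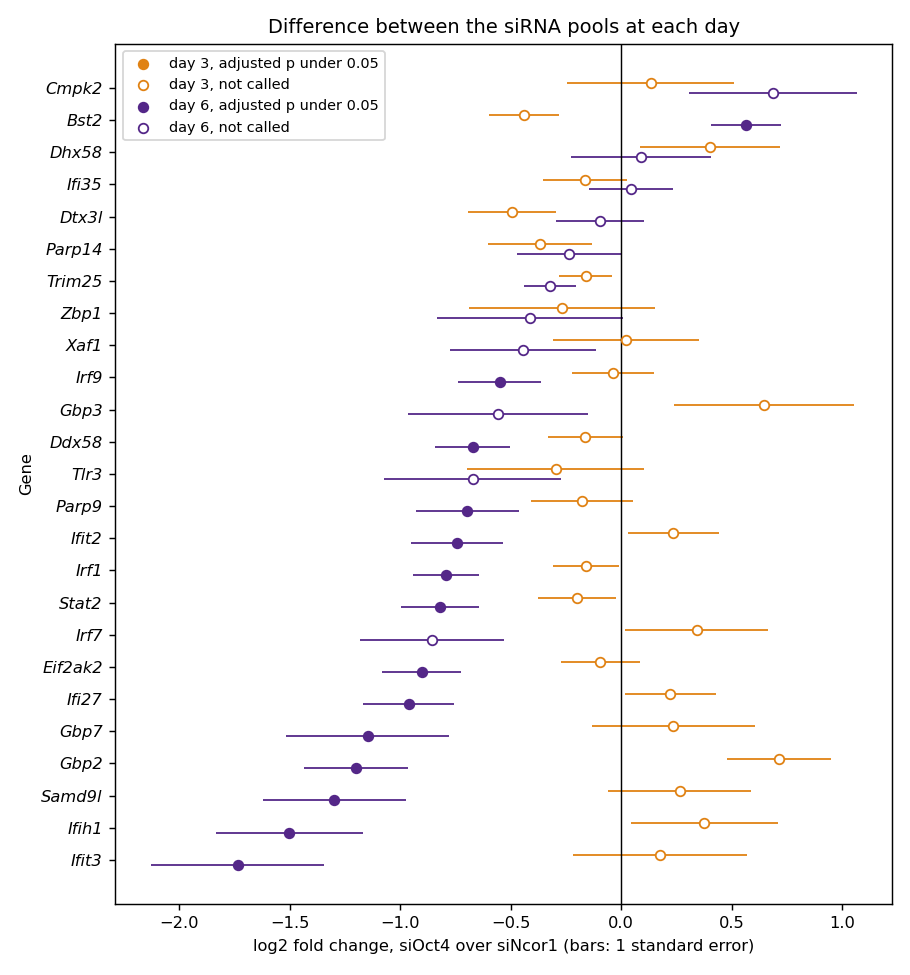
Log2 fold change of *siOct4* over *siNcor1* for the 25 tested genes at day 3 and at day 6, with bars of 1 SE and filled points where the adjusted *p* was under 0.05. No point is filled at day 3, and at day 6 the filled points run from −1.74 for *Ifit3* to −0.55 for *Irf9*, with *Bst2* alone on the positive side at 0.57.

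Single libraries mattered for these counts, and for those over all genes, of which 30.7% were called with all libraries. *Gbp2* and *Irf1* kept their call whichever library was left out. Without *siNcor1* day 6 replicate 1, 7 genes and 19.0% of all genes were called, and *Gbp7*, *Ddx58*, *Samd9l*, *Stat2*, *Irf9*, *Ifit2* and *Ifit3* lost their call with an adjusted *p* between 0.0537 and 0.198. Without *siNcor1* day 6 replicate 2, 4 genes and 10.1% of all genes were called, and the 10 that lost their call, *Bst2* among them, had an adjusted *p* between 0.0506 and 0.320. The 4 that remained were *Ddx58*, *Stat2*, *Irf1* and *Gbp2*. Without *siOct4* day 6 replicate 1, 8 genes and 28.8% of all genes were called, and *Gbp7*, *Ddx58*, *Samd9l*, *Irf9*, *Parp9* and *Ifit2* lost their call with an adjusted *p* between 0.0516 and 0.206. *Irf9* and *Parp9* also lost it when any 1 day 3 library was left out, with an adjusted *p* between 0.0537 and 0.0649. No fold change that was called turned its sign in any of these fits. Among the other settings, *Bst2*, *Irf9* and *Parp9* lost their call without a variance trend and *Gbp7* and *Parp9* with voom. With only the groups compared in the fit, 10 genes were called, and *Gbp7*, *Irf9*, *Parp9* and *Ifit2* were lost.

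Markers of cell types differed in the same comparison, in which 18.6% of all genes were called lower and 12.1% higher. All 8 fibroblast markers were lower in *siOct4* at day 6 (median log2 fold change −0.85), and their summed level was 4363 and 4698 CPM in *siNcor1* and 2419 and 2460.4 CPM in *siOct4*. Of 8 markers of epithelial or reprogrammed cells, 5 were lower, and their sum was 695 and 667 CPM in *siNcor1* and 334 and 299.5 CPM in *siOct4*. Of 13 blood cell markers, 7 were in the table, their sum was between 7.89 and 15.9 CPM in the 8 libraries, none of the 4 tested was called by limma at day 6 (1 at an unadjusted *p* under 0.05), and *Tyrobp* and *Adgre1* had at most 5 and 6 reads in any library. The tested blood cell markers *Cd68*, *Lyz2*, *Csf1r* and *Cd14* reached 103, 52, 33 and 30 reads. From day 3 to day 6 in *siOct4*, *Csf1r* fell (log2 fold change −1.58, limma adjusted *p* = 0.00617), and *Cd68* (1.04) and *Lyz2* (1.18) rose. In *siNcor1* only *Cd68* was called over time (0.78). The pool difference of *Csf1r* also changed between the days (−1.89, limma adjusted *p* = 0.0364). The endothelial markers *Pecam1* and *Cdh5* had at most 9 and 5 reads, and the sum of the 4 endothelial markers was between 16.4 and 44.3 CPM. *Tek* alone gave between 15.8 and 43.2 CPM of it. *Tek* was not called between the pools at day 6 (limma adjusted *p* = 0.513). From day 3 to day 6 it fell in *siNcor1* (log2 fold change −1.22) and in *siOct4* (−1.31). The part of the fibroblast, reprogramming and blood cell markers in the interferon result was not tested.

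The sensors of foreign RNA include the helicases that could meet transfected siRNA. *Ddx58*, which encodes RIG-I, read 29.2 and 29.9 CPM in *siNcor1* and 24.5 and 28.4 CPM in *siOct4* at day 3, and 34.4 and 28.6 CPM in *siNcor1* and 16.9 and 22.7 CPM in *siOct4* at day 6. The day 6 groups did not overlap, and both *siOct4* libraries were the lowest of all 8. *Ddx58* was lower in *siOct4* at day 6 (log2 fold change −0.67, SE 0.17, adjusted *p* = 0.0117). *Ifih1*, which encodes MDA5, read 3.65 and 3.83 CPM in *siNcor1* and 4.61 and 5.19 CPM in *siOct4* at day 3, and 3.30 and 4.45 CPM in *siNcor1* and 0.845 and 1.87 CPM in *siOct4* at day 6. Its day 6 *siOct4* libraries were again the lowest of the 8, and they differed from each other as well. *Ifih1* was lower in *siOct4* at day 6 (log2 fold change −1.50, SE 0.33, adjusted *p* = 0.00643). *Eif2ak2*, which encodes PKR, the kinase that halts translation on binding double-stranded RNA, read 26.9 and 25.6 CPM in *siNcor1* and 23.3 and 25.9 CPM in *siOct4* at day 3, and 17.9 and 21.6 CPM in *siNcor1* and 8.88 and 12.3 CPM in *siOct4* at day 6. Its day 3 groups overlapped, and its level was lowest in both *siOct4* day 6 libraries (log2 fold change −0.90, SE 0.18, adjusted *p* = 0.00369).

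The remaining sensors were not called between the pools at day 6. *Dhx58*, which encodes LGP2, the helicase that tunes MDA5 and RIG-I, had a log2 fold change of 0.089 (SE 0.32, adjusted *p* = 0.857). *Tlr3*, the endosomal receptor for double-stranded RNA, read 0.991 and 2.02 CPM in *siNcor1* and 0.634 and 1.10 CPM in *siOct4* at day 6 and its replicates overlapped (log2 fold change −0.67, SE 0.40, adjusted *p* = 0.224). *Zbp1*, a sensor of Z-form nucleic acid, read 1.57 and 2.69 CPM in *siNcor1* and 1.16 and 1.95 CPM in *siOct4* at day 6, also with overlap (log2 fold change −0.41, SE 0.42, adjusted *p* = 0.483). *Dhx58* and *Tlr3* overlap genes on the other strand, as does *Eif2ak2*. Whether strand was used in counting is not stated in the sources used here, so reads of such partners may be mixed.

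Transcription factors of the response were lower in *siOct4* at day 6 for 3 of 4 genes, against 18.6% of all genes tested. *Irf1*, which drives interferon and interferon gamma targets, read 16.9 and 19.0 CPM in *siNcor1* and 15.4 and 16.7 CPM in *siOct4* at day 3, and 21.1 and 21.3 CPM in *siNcor1* and 12.4 and 12.1 CPM in *siOct4* at day 6. The day 6 groups were far apart and each replicate pair was tight (log2 fold change −0.79, SE 0.15, adjusted *p* = 0.00276). *Stat2*, a subunit of the interferon-activated complex with IRF9, read 14.3 and 12.4 CPM in *siNcor1* and 10.9 and 12.3 CPM in *siOct4* at day 3, and 18.5 and 14.8 CPM in *siNcor1* and 8.88 and 9.76 CPM in *siOct4* at day 6. Both *siOct4* day 6 libraries were below the other 6 (log2 fold change −0.82, SE 0.18, adjusted *p* = 0.00572). *Irf9*, the DNA-binding subunit of that complex, read 9.59 and 11.3 CPM in *siNcor1* and 10.4 and 9.87 CPM in *siOct4* at day 3, and 17.6 and 16.0 CPM in *siNcor1* and 9.83 and 13.2 CPM in *siOct4* at day 6. Here the *siNcor1* day 6 libraries stood above the other 6 (log2 fold change −0.55, SE 0.19, adjusted *p* = 0.0436), and its reads may include some of *Rnf31*, which it overlaps on the same strand. *Irf7*, which amplifies interferon production, read 1.48 and 1.10 CPM in *siNcor1* and 1.35 and 2.03 CPM in *siOct4* at day 3, and 3.14 and 2.69 CPM in *siNcor1* and 1.48 and 1.61 CPM in *siOct4* at day 6. The *siNcor1* day 6 libraries were the highest of the 8, but the difference was not called (log2 fold change −0.86, SE 0.33, adjusted *p* = 0.0651), and *Irf7* overlaps *Phrf1* on the other strand.

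Among the 8 antiviral effectors that were tested, 4 were lower and 1 (12.5%) was higher in *siOct4* at day 6. Over all genes, 18.6% were lower and 12.1% higher. *Ifit3*, of a family that binds viral RNA, read 0.742 and 0.696 CPM in *siNcor1* and 0.677 and 1.01 CPM in *siOct4* at day 3, and 2.15 and 1.85 CPM in *siNcor1* and 0.423 and 0.594 CPM in *siOct4* at day 6. Only the *siNcor1* day 6 libraries were above 1.02 CPM, so *Ifit3* entered the test through the group where it was high (log2 fold change −1.74, SE 0.39, adjusted *p* = 0.00721), and 54.5% of its 43-base words are shared with *Ifit3b*. *Ifit2*, a relative with no such shared words, read 8.48 and 9.57 CPM in *siNcor1* and 10.6 and 10.6 CPM in *siOct4* at day 3, and 8.43 and 8.32 CPM in *siNcor1* and 4.12 and 5.94 CPM in *siOct4* at day 6. The *siOct4* day 6 libraries were the lowest of the 8 and differed between replicates (log2 fold change −0.74, SE 0.21, adjusted *p* = 0.0192). *Samd9l*, an inhibitor of translation in antiviral defence, read 3.59 and 3.83 CPM in *siNcor1* and 4.40 and 4.56 CPM in *siOct4* at day 3, and 4.21 and 4.03 CPM in *siNcor1* and 1.06 and 2.38 CPM in *siOct4* at day 6. Both *siOct4* day 6 libraries were below the other 6, replicate 1 the lowest (log2 fold change −1.30, SE 0.32, adjusted *p* = 0.0113). *Ifi27*, a small protein of organelle membranes, read 4.76 and 3.89 CPM in *siNcor1* and 4.67 and 5.44 CPM in *siOct4* at day 3, and 10.3 and 10.7 CPM in *siNcor1* and 5.39 and 5.26 CPM in *siOct4* at day 6. Only the *siNcor1* day 6 libraries stood above the rest (log2 fold change −0.96, SE 0.21, adjusted *p* = 0.00554).

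*Bst2* took the opposite direction. It read 23.3 and 19.3 CPM in *siNcor1* and 16.9 and 14.4 CPM in *siOct4* at day 3, and 63.9 and 49.6 CPM in *siNcor1* and 85.4 and 81.4 CPM in *siOct4* at day 6, so its level was higher in each day 6 library than in any day 3 library. The *siOct4* libraries were below the *siNcor1* libraries at day 3 and above them at day 6 (log2 fold change 0.57, SE 0.16, adjusted *p* = 0.0195). The other effectors were not called: *Ifi35* had a log2 fold change of 0.043 (SE 0.19, adjusted *p* = 0.886), *Xaf1*, a partner of the apoptosis inhibitor XIAP, of −0.44 (SE 0.33, adjusted *p* = 0.334), and *Cmpk2*, a mitochondrial nucleotide kinase, of 0.69 (SE 0.38, adjusted *p* = 0.191).

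The guanylate-binding proteins are GTPases that attack the membranes of intracellular pathogens. *Gbp2* read 3.63 and 4.29 CPM in *siNcor1* and 1.37 and 1.95 CPM in *siOct4* at day 6, without overlap, and was lower in *siOct4* (log2 fold change −1.20, SE 0.24, adjusted *p* = 0.00357) after being higher there at day 3 by a difference that was not called. *Gbp7* read 2.17 and 1.16 CPM in *siNcor1* and 1.90 and 1.90 CPM in *siOct4* at day 3, and 2.40 and 1.68 CPM in *siNcor1* and 0.740 and 0.934 CPM in *siOct4* at day 6. Both *siOct4* day 6 libraries were below the other 6 (log2 fold change −1.15, SE 0.37, adjusted *p* = 0.0354), and *Gbp7* overlaps *Gm43802* on the same strand. *Gbp3* read 1.24 and 0.756 CPM in *siNcor1* and 0.740 and 0.509 CPM in *siOct4* at day 6, without overlap but with a difference that was not called (log2 fold change −0.56, SE 0.41, adjusted *p* = 0.322).

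Of 4 genes of the ISG15 and ubiquitin system tested, 1 (25%) was called, lower in *siOct4* at day 6. The share called lower over all genes was 18.6%. *Parp9*, an ADP-ribosylation enzyme that works with DTX3L, read 7.80 and 7.77 CPM in *siNcor1* and 6.64 and 7.09 CPM in *siOct4* at day 3, and 6.11 and 8.66 CPM in *siNcor1* and 3.80 and 5.18 CPM in *siOct4* at day 6. The *siOct4* day 6 libraries were the lowest, with a wide gap between the replicates of both day 6 groups (log2 fold change −0.70, SE 0.23, adjusted *p* = 0.0398). *Parp9* overlaps *Dtx3l* on the other strand, for which the day 6 fold change was −0.096 (SE 0.20, adjusted *p* = 0.746). *Trim25* read 85.7 and 90.6 CPM in *siNcor1* and 75.5 and 82.3 CPM in *siOct4* at day 3, and 65.3 and 63.4 CPM in *siNcor1* and 48.6 and 54.5 CPM in *siOct4* at day 6. Its *siOct4* libraries were below its *siNcor1* libraries at both days, without a call at day 6 (log2 fold change −0.32, SE 0.12, adjusted *p* = 0.0586). *Parp14*, a further ADP-ribosylation enzyme, had a log2 fold change of −0.23 (SE 0.24, adjusted *p* = 0.480).

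Of the windows searched for promoter elements, those of 7 of the 11 genes that were lower in *siOct4* at day 6 held an ISRE match, and so did those of 2 of the other 9 tested genes. A GAS match was present in 4 of the 11 and in 2 of the 9. These counts describe the letters in the windows and were not tested.

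The 13 genes below 1 CPM include the genes most often read as signs of interferon, and they are given in reads. *Isg15*, the ubiquitin-like protein attached to targets during the response, had 3 and 4 reads in *siNcor1* and 9 and 2 in *siOct4* at day 3, and 17 and 11 reads in *siNcor1* and 2 and 5 in *siOct4* at day 6. *Rsad2*, which encodes viperin, had 1 and 7 reads in *siNcor1* and 3 and 4 in *siOct4* at day 3, and 18 and 26 reads in *siNcor1* and 3 and 3 in *siOct4* at day 6. *Oasl2*, of the 2′-5′ oligoadenylate synthetase family, had 8 and 9 reads in *siNcor1* and 9 and 6 in *siOct4* at day 3, and 22 and 16 reads in *siNcor1* and 4 and 2 in *siOct4* at day 6. For all of these the *siNcor1* day 6 libraries were the highest of the 8. In a fit with no filter on low values, the *siOct4* over *siNcor1* log2 fold change at day 6 was −1.53 (SE 0.49, adjusted *p* = 0.0439) for *Isg15*. It was −2.21 (SE 0.55, adjusted *p* = 0.0155) for *Rsad2*. It was −2.04 (SE 0.43, adjusted *p* = 0.00716) for *Oasl2*. These fold changes are on the log2 scale with a constant of 0.136 CPM that the deposited values contain, which understates changes of low genes. The other genes below 1 CPM were not called between the pools at day 6. At day 3 none of the 13 genes was called in that fit, and none had an unadjusted *p* under 0.05. Over all 18990 genes, the same fit called 21.0% at day 6 and 0.611% at day 3, both directions together.

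*Ifit1*, the founding member of its family, had 13 and 19 reads in *siNcor1* and 11 and 11 in *siOct4* at day 3, and 7 and 17 reads in *siNcor1* and 5 and 2 in *siOct4* at day 6. The replicates of *siNcor1* at day 6 were far apart, at −0.485 and 0.646 log2-cpm, and both were above the *siOct4* replicates. The day 6 fold change was −1.23 (SE 0.53, adjusted *p* = 0.123). *Usp18*, the protease that removes ISG15 and dampens interferon signalling, had 9 and 9 reads in *siNcor1* and 10 and 8 in *siOct4* at day 3, and 14 and 12 reads in *siNcor1* and 3 and 11 in *siOct4* at day 6. It was lowest in *siOct4* day 6 replicate 1 and not in its partner, and its fold change was −0.80 (SE 0.46, adjusted *p* = 0.248). Neither gene was called in any comparison of that fit. *Rtp4*, *Oas1a*, *Oasl1* and *Ifit3b* had at most 16, 9, 6 and 4 reads in any library, and *Oas1a* shares 61.5% of its 43-base words with *Oas1g*. *Mx2* and *Ifi44* had at most 3 reads, and 0 in both *siOct4* day 6 libraries, where a count of 0 allows up to 3 reads, or 0.317 and 0.255 CPM. The chemokines *Cxcl10* and *Ccl5*, which attract lymphocytes, had at most 7 and 23 reads, and the 23 reads of *Ccl5* in *siNcor1* day 6 replicate 1 stood against 5 in replicate 2.

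To see which group moved over time, day 6 was compared with day 3 within each pool. These comparisons share libraries with those between the pools. All 8 epithelial or reprogrammed markers rose in both pools (median log2 fold change 5.04 in *siNcor1* and 3.51 in *siOct4*), from sums of 59.9 and 62.2 CPM in *siNcor1* and 16.6 and 20.8 CPM in *siOct4* at day 3. Over all genes, 13.8% rose and 20.9% fell in *siNcor1*, and 22.2% rose and 30.5% fell in *siOct4*. Of 8 fibroblast markers, 3 rose and 2 fell in *siNcor1*, and 4 fell in *siOct4*. The part of these markers in the changes over time was not tested. In *siNcor1*, 6 of the 25 genes rose and 3 fell, against 13.8% and 20.9% of all genes (5 and 3 of 23 without *Ifit3* and *Gbp3*), with a median log2 fold change of 0.15 against −0.068. The day 6 replicates were both above the day 3 replicates for 12 genes and both below for 7, and these shares over all genes were 31.4% and 41.7%. *Bst2* rose by 1.40 (SE 0.16, adjusted *p* = 9.46e-05) on the log2 scale. *Ifi27* rose by 1.26 (SE 0.21, adjusted *p* = 0.000913), and *Ifit3*, which passed the 1 CPM level only through *siNcor1* day 6, by 1.32 (SE 0.39, adjusted *p* = 0.0221). The factors *Irf7* and *Irf9* rose by 1.10 (SE 0.33, adjusted *p* = 0.0209) and 0.68 (SE 0.19, adjusted *p* = 0.0151). *Zbp1* rose by 1.17 (SE 0.42, adjusted *p* = 0.0484). The genes that fell were *Gbp2*, at −0.81 (SE 0.24, adjusted *p* = 0.0203), *Dtx3l*, at −0.77 (SE 0.20, adjusted *p* = 0.0109), and *Trim25*, at −0.45 (SE 0.12, adjusted *p* = 0.0119). *Stat2* and *Irf1* were at 0.31 (SE 0.18, adjusted *p* = 0.199) and 0.24 (SE 0.15, adjusted *p* = 0.227). With quantile normalization, *Zbp1*, *Irf7* and *Trim25* lost their call (limma adjusted *p* between 0.0555 and 0.108). *Zbp1* also lost it with no filter, with totals without normalization factors and with a pseudocount of 0.1 CPM. Below 1 CPM, with no filter, *Rsad2* rose by 2.57 (SE 0.55, adjusted *p* = 0.00571), *Isg15* by 1.89 (SE 0.49, adjusted *p* = 0.0144) and *Oasl2* by 1.40 (SE 0.43, adjusted *p* = 0.0335). The others below 1 CPM were not called, and that fit called 25.4% of all genes over time in *siNcor1*.

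With all libraries, 34.8% of all genes were called over time in *siNcor1*, and this share fell with the count when a library was left out. Without *siNcor1* day 3 replicate 1 there were 5 calls (23.7% of all genes), and without replicate 2 there were 3 (17.0%). Without *siNcor1* day 6 replicate 1 there were 2 calls (18.5%), and without replicate 2 there were also 2 (21.5%). *Bst2* and *Ifi27* were called in each of these fits, and the genes that lost their call had an adjusted *p* between 0.0506 and 0.300.

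In *siOct4*, 2 genes rose and 10 fell from day 3 to day 6, against 22.2% and 30.5% of all genes, with a median log2 fold change of −0.39 against −0.079. Over all genes the day 6 replicates were both above in 32.7% and both below in 42.1%, and among the 25 genes this was so for 5 and 16. *Gbp2* fell furthest, from 10.7 and 12.5 CPM to 1.37 and 1.95 CPM, at −2.72 (SE 0.24, adjusted *p* = 4.22e-06). The sensors *Ifih1* and *Eif2ak2* fell, at −1.84 (SE 0.33, adjusted *p* = 0.000691) and −1.22 (SE 0.18, adjusted *p* = 0.000160). *Samd9l* was at −1.41 (SE 0.32, adjusted *p* = 0.00316) and *Ifit2* at −1.08 (SE 0.21, adjusted *p* = 0.00102). *Gbp3* and *Gbp7* were at −1.13 (SE 0.41, adjusted *p* = 0.0345) and −1.07 (SE 0.37, adjusted *p* = 0.0287). *Gbp3* passed the 1 CPM level only through *siOct4* day 3, the group it fell from. *Trim25*, *Parp9* and *Irf1* fell by less, at −0.61 (SE 0.12, adjusted *p* = 0.00108), −0.61 (SE 0.23, adjusted *p* = 0.0421) and −0.39 (SE 0.15, adjusted *p* = 0.0434). *Bst2* rose from 16.9 and 14.4 CPM to 85.4 and 81.4 CPM, at 2.41 (SE 0.16, adjusted *p* = 5.78e-07), and *Ifi35* rose at 0.72 (SE 0.19, adjusted *p* = 0.00740). *Ifi27*, *Irf7* and *Irf9*, which rose in *siNcor1*, were at 0.076 (SE 0.21, adjusted *p* = 0.774), −0.095 (SE 0.33, adjusted *p* = 0.822) and 0.17 (SE 0.19, adjusted *p* = 0.476). Without *siOct4* day 3 replicate 2, 7 genes were called (38.9% of all genes, against 52.7% with all libraries), and *Gbp7*, *Gbp3*, *Irf1*, *Ifi35* and *Parp9* lost their call with an adjusted *p* between 0.0909 and 0.201. With library totals that leave out *Gm26917*, the split was 3 higher and 7 lower. Of all 13866 genes, 3812 were then higher and 3444 lower, against 3079 and 4233 with the deposited scaling. With centring on the median, the split was 3 higher and 8 lower, and over all genes 3467 were higher and 3830 lower.

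**Figure D4:**
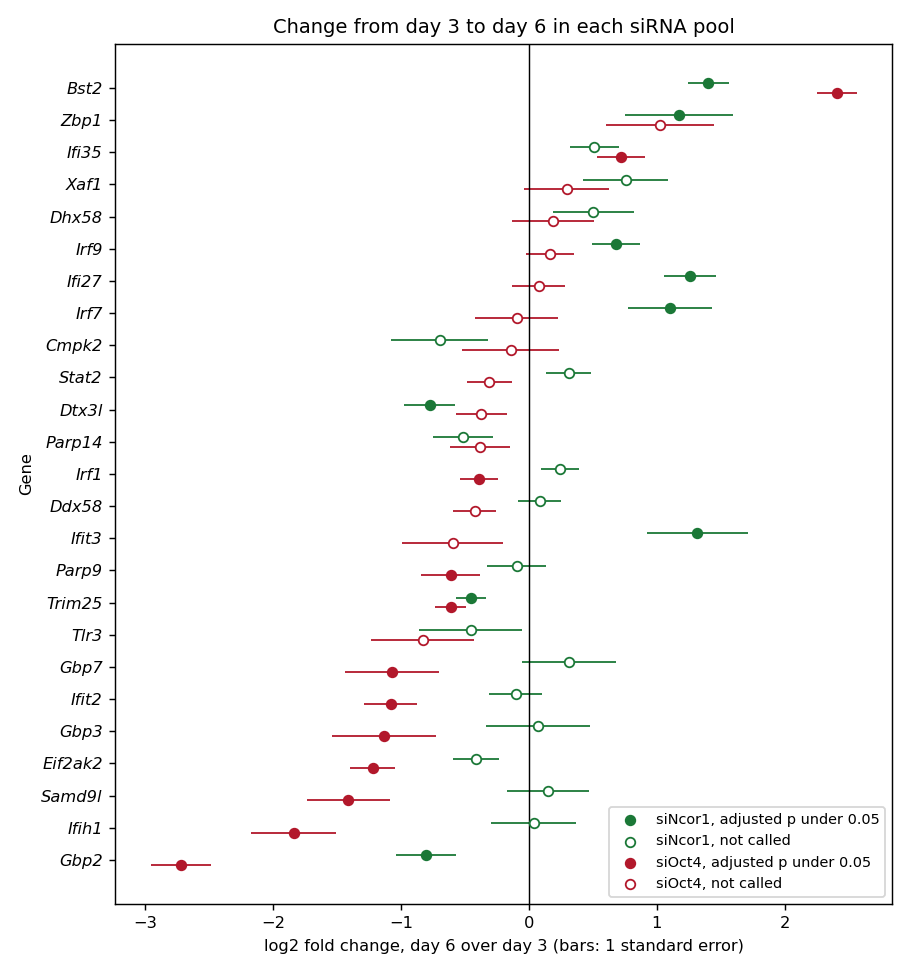
Log2 fold change from day 3 to day 6 (horizontal) for each of the 25 tested genes, with 1 point for *siNcor1* (green) and 1 for *siOct4* (red), bars of 1 SE and filled points at an adjusted *p* under 0.05. *Gbp2* lies at −0.81 in *siNcor1* and −2.72 in *siOct4*, and *Bst2* at 1.40 and 2.41.

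The change of the pool difference between the days was tested directly as an interaction. It was called for 8 of the 25 genes, 1 positive and 7 negative, against 7.77% and 12.9% of all genes, and the median was −0.52 on the log2 scale against 0.012. *Gbp2* had the lowest adjusted *p*, with a change of −1.92 (SE 0.33, adjusted *p* = 0.00285). *Ifih1* changed by −1.88 (SE 0.47, adjusted *p* = 0.0173), and *Ifit3*, with the limit given above, by −1.91 (SE 0.56, adjusted *p* = 0.0318). *Samd9l* changed by −1.56 (SE 0.46, adjusted *p* = 0.0326) and *Ifi27* by −1.18 (SE 0.29, adjusted *p* = 0.0160). *Ifit2* and *Eif2ak2* changed by −0.98 (SE 0.29, adjusted *p* = 0.0356) and −0.81 (SE 0.25, adjusted *p* = 0.0415). The positive change was that of *Bst2*, at 1.00 (SE 0.22, adjusted *p* = 0.0101). None of the transcription factors was called by limma (3 at an unadjusted *p* under 0.05), with *Irf1* at −0.63 (SE 0.21, adjusted *p* = 0.0513), *Irf7* at −1.20 (SE 0.46, adjusted *p* = 0.0855), *Stat2* at −0.62 and *Irf9* at −0.51 (SE 0.26, adjusted *p* = 0.189). Below 1 CPM, with no filter, *Rsad2* and *Oasl2* were called, at −2.72 (SE 0.78, adjusted *p* = 0.0406) and −2.38 (SE 0.61, adjusted *p* = 0.0263), and *Isg15* was not, at −2.18 (SE 0.69, adjusted *p* = 0.0577). The others below 1 CPM were not called, and the interaction was called for 13.3% of all genes in that fit. *Gbp2* was the only gene called whichever library was left out. Without *siNcor1* day 3 replicate 1 there were 3 calls (15.7% of all genes, against 20.7% with all libraries), and without replicate 2 there were 2 (7.28%). Without *siOct4* day 3 replicate 1 there were 5 (15.1%), and without replicate 2 there was 1 (9.93%). Without *siNcor1* day 6 replicate 1 there were 4 (12.7%), and without replicate 2 there was 1 (8.57%).

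Genes around the response were taken from a separate list of interferon ligands, receptors, signalling proteins, brakes and further interferon-stimulated genes, of which 80 were in the table and 63 were tested. Transcripts of interferon itself, such as *Ifnb1* and *Ifng*, were not analysed here. At day 3, none of the 63 was called between the pools, against 1.07% of all genes. An unadjusted *p* under 0.05 was seen for 7 of the 63 and for 1460 of all 13866 genes. At day 6, 29 (46.0%) were lower and 1 (1.59%) was higher in *siOct4*, against 18.6% and 12.1% of all genes, with a median log2 fold change of −0.55 against −0.025 over all genes tested. From day 3 to day 6, 8 (12.7%) rose and 11 (17.5%) fell in *siNcor1*, both under the shares over all genes of 13.8% and 20.9%. In *siOct4*, 5 (7.94%) rose and 39 (61.9%) fell, against 22.2% and 30.5%. The interaction was called for 1 positive (1.59%) and 25 negative genes (39.7%), against 7.77% and 12.9% of all genes.

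In the lists that follow, counts of lower genes at day 6 are to be read against the 18.6% called lower over all genes. Of 5 receptor genes tested, 2 were lower in *siOct4* at day 6. *Ifnar1*, a chain of the type I interferon receptor, read 52.5 and 61.6 CPM in *siNcor1* and 34.3 and 43.4 CPM in *siOct4* (log2 fold change −0.56, SE 0.14, adjusted *p* = 0.0115), and *Ifngr2*, a chain of the interferon gamma receptor, read 38.2 and 36.2 CPM in *siNcor1* and 22.2 and 29.5 CPM in *siOct4* (log2 fold change −0.54, SE 0.16, adjusted *p* = 0.0238). *Ifnar2* and *Ifngr1* were at −0.32 (SE 0.16, adjusted *p* = 0.157) and −0.41 (SE 0.14, adjusted *p* = 0.0526). Of 17 signalling and sensing genes, 7 (41.2%) were lower and none was higher. The kinases *Jak1* and *Jak2* were at −0.84 (SE 0.15, adjusted *p* = 0.00232) and −1.03 (SE 0.16, adjusted *p* = 0.00104). *Stat3* was at −0.78 (SE 0.11, adjusted *p* = 0.000724) and *Tmem173*, which encodes STING, at −0.97 (SE 0.14, adjusted *p* = 0.000692). The adaptors *Myd88* and *Ticam1* were at −0.70 (SE 0.15, adjusted *p* = 0.00560) and −0.52 (SE 0.15, adjusted *p* = 0.0203). *Mavs*, the adaptor of RIG-I and MDA5, was at −0.0026 (SE 0.12, adjusted *p* = 0.988), *Tbk1* at −0.11 (SE 0.12, adjusted *p* = 0.526) and *Irf3* at 0.40 (SE 0.14, adjusted *p* = 0.0503), and none of these was called.

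Of 12 genes that restrain the response, 4 (33.3%) were lower in *siOct4* at day 6. They were *Nlrc5*, which is also an activator of MHC class I genes, at −1.02 (SE 0.23, adjusted *p* = 0.00690), *Socs3* at −0.69 (SE 0.13, adjusted *p* = 0.00275), *Ptpn11* at −0.47 (SE 0.11, adjusted *p* = 0.0104) and *Pias1* at −0.42 (SE 0.14, adjusted *p* = 0.0353). *Socs1*, the inhibitor of JAK kinases, was at −0.11 (SE 0.28, adjusted *p* = 0.787). Of 29 further interferon-stimulated genes, 16 (55.2%) were lower and 1 was higher, with a median log2 fold change of −0.76. *Irgm2*, an immunity-related GTPase, read 3.22 and 4.54 CPM in *siNcor1* and 1.16 and 0.849 CPM in *siOct4* (log2 fold change −1.81, SE 0.31, adjusted *p* = 0.00179). *Ifitm3*, which blocks viral entry, read 315 and 265 CPM in *siNcor1* and 174 and 167 CPM in *siOct4* (log2 fold change −0.76, SE 0.16, adjusted *p* = 0.00570), and *Lgals3bp* read 131 and 115 CPM in *siNcor1* and 61.4 and 65.1 CPM in *siOct4* (log2 fold change −0.96, SE 0.14, adjusted *p* = 0.000841). The gene that was higher was *Ifi30*, a lysosomal thiol reductase, which had 399 and 298 reads in *siNcor1* and 404 and 431 in *siOct4* on libraries of unequal depth (log2 fold change 0.46, SE 0.16, adjusted *p* = 0.0429).

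**Figure D5:**
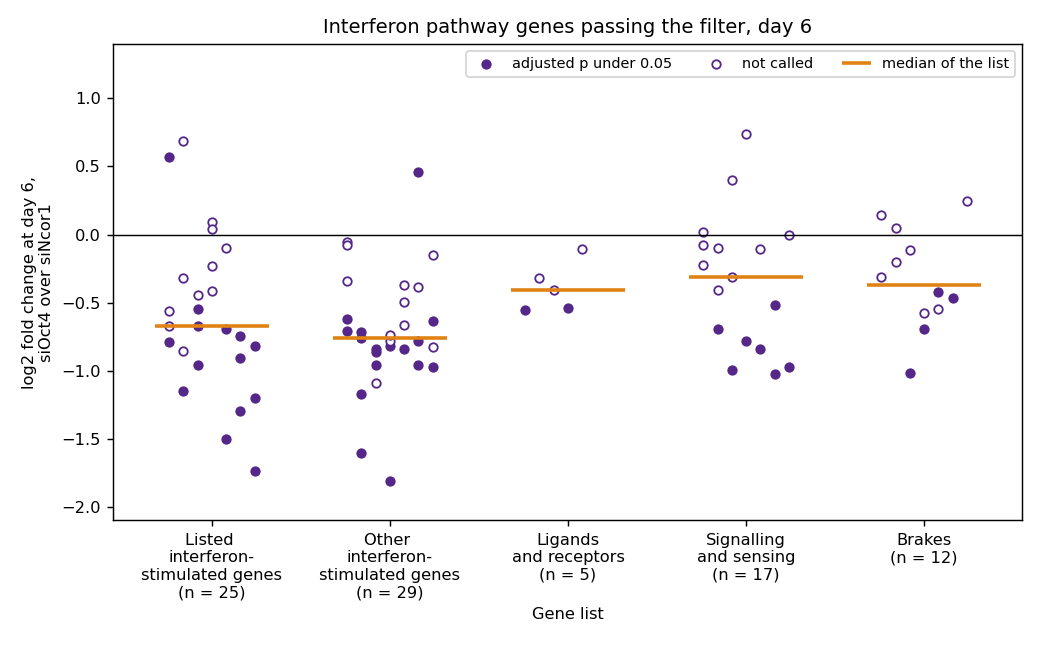
Log2 fold change of *siOct4* over *siNcor1* at day 6 for the 25 listed interferon-stimulated genes and the 63 other genes of the response, by list, with filled points at an adjusted *p* under 0.05 and a line at the median of each list. The medians are −0.67 for the listed genes and −0.76 for the further interferon-stimulated genes, and 1 filled point lies above 0 in each of these lists, *Bst2* and *Ifi30*.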

How the data were processed

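RNA-seq was measured in 8 libraries prepared from 200 ng of RNA after depletion of ribosomal RNA, with paired-end reads 43 bases long. The submitters' processing notes name STAR 2.5.2b and edgeR 3.20.9, and the genome build mm10 (GRCm38). The authors deposited log2-cpm values per gene; the counting tool and its use of strand are not given in the sources used here. After subtraction of a constant of 0.136 CPM, 100% of the values were whole reads within 0.1 read, which gave the depth and the reads and CPM printed here. Intervals and floors from reads cover counting error only.

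Of 18990 genes, the 13866 whose mean reached 1 CPM were tested with limma 3.58.1 in R 4.3.3 on the log2 values (4 groups fitted together, eBayes with trend, Benjamini-Hochberg adjustment at 0.05). The test was tried on simulated data first. Coordinates are from GENCODE M21, which matched 18969 genes. Full values are given for genes called between the pools or in the interaction and for *Isg15*, *Ifit1*, *Irf1*, *Irf7*, *Irf9*, *Stat2* and *Usp18*, and library values of *Dtx3l*, *Gbp3*, *Tlr3*, *Trim25*, *Zbp1*, *Rsad2* and *Oasl2* and the pathway genes named were chosen after their values were seen. The genes and lists were chosen with earlier results of these data known.

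Alternatives were other scalings, filters and pseudocounts, no variance trend, a fit of only the groups compared, the replicate block, voom on the recovered reads, and leaving out each library. Figures were drawn with matplotlib 3.10.9.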

Additional observations from a re-analysis of the deposited data

Results flagged for a closer look

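For 8 genes the difference between the pools changed from day 3 to day 6 by the interaction term of the limma fit. On the log2 scale, *siOct4* minus *siNcor1* changed by −1.92 for *Gbp2*, from 0.71 to −1.20. *Ifit3* passed the 1 CPM level only through *siNcor1* day 6. For *Ifit3* it changed by −1.91, from 0.18 to −1.74, and for *Ifih1* by −1.88, from 0.38 to −1.50. For *Samd9l* the change was −1.56, from 0.26 to −1.30, and for *Ifi27* it was −1.18, from 0.22 to −0.96. For *Ifit2* the change was −0.98 and for *Eif2ak2* it was −0.81. *Bst2* changed the other way, by 1.00, from −0.44 to 0.57. In the same comparison, 7.77% of all genes were called positive and 12.9% negative. Of 8 fibroblast markers, 6 were called negative, and of 8 epithelial or reprogrammed markers, 3 were positive and 2 negative (median 0.83). Their part in the result was not tested.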

How the results depend on the processing

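At day 3, 0 of the listed genes were called between the pools under every alternative run. Few of all genes were called there, 1.07% in the limma fit of all 8 libraries. With a mean of at least 10 CPM required, 8 genes were tested, and the calls were 6 between the pools at day 6, 4 over time in *siNcor1*, 5 over time in *siOct4* and 3 in the interaction, against 14, 9, 12 and 8, since fewer genes were tested. Of all 9223 genes that reached 10 CPM, the shares called in these comparisons were 38.0%, 41.5%, 58.4% and 25.6%. Leaving out 1 library at a time gave between 4 and 15 calls between the pools at day 6, between 2 and 11 over time in *siNcor1*, between 7 and 13 over time in *siOct4*, and between 1 and 10 in the interaction. In those fits a lone library is assumed to vary like the other groups. Same-numbered libraries deviated together in some pairs of groups and not in others (correlations between −0.040 and 0.281, 3 of 6 above 0.1), so the numbers were not taken as pairs, and with the replicate block the calls were 15, 10, 13 and 9. The shares of all genes called with the replicate block were 33.9%, 37.6%, 54.6% and 24.5%. Of 2390 gene values under alternatives, 145 lost their call, 109 of these when a library was left out, 42 gained a call, and no called value reversed. Library totals without *Gm26917* moved the median of all genes by 0.13 on the log2 scale for the change over time in *siOct4*. Depth limits the 11 genes with fewer than 20 reads in every library. Leaving out *Ifit3* and *Gbp3*, a choice made after seeing the data, gave 13, 8, 11 and 7 calls.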
